A study of Mus musculus with 27 samples.

Results

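Keratins are the intermediate filament proteins of epithelial cells. The set examined here holds 9 keratin genes taken by symbol, out of 55 keratin genes and 24953 genes in the RNA-seq table. They are Krt8, Krt18, Krt7, Krt19 and Krt20 of simple (single-layered) epithelia, Krt5, Krt14 and Krt17 of stratified epithelia, and Krt23, a minor keratin of simple epithelia. RNA-seq compared 3 libraries each of control, Runx1KO and ZebDKO mK4 cells. mK4 is a mouse line derived from the metanephric mesenchyme, the tissue that gives rise to kidney nephrons, and all 3 groups were grown in medium with serum and collected at or near confluency. Control cells carry unedited Runx1, Zeb1 and Zeb2. In Runx1KO cells CRISPR removed exon 3 of Runx1, a DNA-binding transcription factor. In ZebDKO cells CRISPR removed exon 2 of Zeb1 and exon 1 of Zeb2, which encode repressors of epithelial genes, and Runx1 was left in place. Knockout cells were grown from picked clones, and the number of clones sequenced is not given in the sources used here, so clone and genotype cannot be told apart. The ZebDKO libraries also have their own protocol entry, so that any difference in preparation and the genotype cannot be told apart either. Lists of open chromatin (ATAC-seq, control and Runx1KO cells) and of Runx1 and Runx2 binding (ChIP-seq) were used to describe the keratin loci.

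A keratin filament is built from pairs of 1 type I and 1 type II protein, and neither type forms a filament alone. Krt8 and Krt7 are type II and pair with the type I keratins Krt18, Krt19 and Krt20 in kidney tubules, gut and other simple epithelia. Krt5 (type II) and Krt14 (type I) form the filaments of basal cells of the epidermis, and Krt17 (type I) is known from hair follicles, glands and wounded skin. Mesenchymal cells build their filaments from vimentin instead. Type II genes lie together on mouse chromosome 15 and most type I genes on chromosome 11, with Krt18 as the type I gene that sits beside Krt8.

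Sequences from some of the loci are printed first. Zeb proteins are known to bind CAGGTG and CAGGTA, which read CACCTG and TACCTG on the other strand. In the sequences below, capitals mark these letters. They lie in mm9, run in the direction of transcription, and were taken from RefSeq promoters or from the genome under an ATAC-seq peak. The 250 bases before the start of Krt8 (chr15:101834774-101835023, minus strand) are shown because they lie whole in a region that opens in Runx1KO cells, and those of Krt18 (chr15:101858397-101858646, plus strand) because no listed peak covers them.
Krt8 promoter: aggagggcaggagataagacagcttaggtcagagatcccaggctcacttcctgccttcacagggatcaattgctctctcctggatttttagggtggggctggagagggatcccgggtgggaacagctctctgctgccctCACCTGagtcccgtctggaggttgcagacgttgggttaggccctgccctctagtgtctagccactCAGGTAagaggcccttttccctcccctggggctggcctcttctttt
Krt18 promoter: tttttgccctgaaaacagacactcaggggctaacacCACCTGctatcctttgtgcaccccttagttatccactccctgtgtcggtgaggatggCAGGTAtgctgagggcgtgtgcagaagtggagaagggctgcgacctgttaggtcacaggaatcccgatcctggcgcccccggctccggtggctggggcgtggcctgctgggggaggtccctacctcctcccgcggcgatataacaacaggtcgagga
The next stretch lies in the opening region nearest to the start of Krt18 (chr15:101854422-101854721).
Krt18 upstream region: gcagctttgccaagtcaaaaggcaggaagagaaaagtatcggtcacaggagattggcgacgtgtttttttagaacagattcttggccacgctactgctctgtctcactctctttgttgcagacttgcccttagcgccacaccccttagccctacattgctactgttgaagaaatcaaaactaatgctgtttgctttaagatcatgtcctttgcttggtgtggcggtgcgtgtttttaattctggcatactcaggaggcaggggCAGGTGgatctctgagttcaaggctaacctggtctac
The last 3 are sites of 30 bases, from the promoter of Krt7 (chr15:101242778-101242807), from the opening region at Krt19 (chr11:100007242-100007271, minus strand) and from the promoter of Krt5 (chr15:101543447-101543476, minus strand), a gene that stayed low.
Krt7 site: ccgccctgtcccCACCTGtgtgcgctcagc
Krt19 site: cataaaaagccaCAGGTGagggccttgtca
Krt5 site: cacaccactgtgCAGGTGtgctgggtgagc

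Each library sums to between 999985 and 999998 TPM (a level per gene length, scaled to the same library sum), with 12541 to 12697 genes at 1 TPM or more. The number of reads cannot be read from TPM. Runx1 stood at 15.6 to 18.7 TPM in control and 28.5 to 30.3 TPM in Runx1KO libraries, and Zeb1 at 14.2 to 15.6 TPM in control and 14.8 to 16.8 TPM in ZebDKO libraries. TPM over a whole gene does not show the loss of 1 exon, so neither value checks the labels. Zeb2 stood at 4.9 to 5.5 TPM in control and 1.6 to 1.8 TPM in ZebDKO libraries. Runx1, which was not edited in ZebDKO cells, stood there at 9.4 to 10.5 TPM, below every control library. The same held for 53.3% of the 12974 genes tested in ZebDKO against control cells. In Runx1KO libraries Zeb1 and Zeb2 both lay between 0.1 and 0.2 TPM. Of the 10 markers of metanephric mesenchyme, 5 had a control mean of at least 1 TPM, among them Pax2 at 310.2 to 315.7 TPM, while Six2, which defines nephron progenitors, was listed at 0 in all 3 control libraries. Blood markers summed to 1.8 to 3.1 TPM and endothelium markers to 1 to 5.8 TPM over all libraries, with Ptprc at 0 in every library.

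Control cells held almost no RNA of the 9 keratins, which summed to 4.1 to 6 TPM. The sum was 2456.3 to 2549.2 TPM in Runx1KO and 1355.4 to 1418 TPM in ZebDKO libraries. In bulk RNA, more cells with a keratin and more RNA per cell cannot be told apart. A gene was tested where it reached 1 TPM in at least 3 of the 6 libraries compared, and called at more than 2-fold with an adjusted p under 0.05 (limma on log2(TPM+1), Benjamini-Hochberg over all genes tested). Of the 9 keratins, 7 were tested in each comparison, and Krt5 and Krt23 were too low. In control libraries Krt7 and Krt8 alone averaged 1 TPM or more. The other 5 tested genes entered through the knockout libraries only, so that they had to differ, and the counts are a description. All 7 tested keratins were called higher in Runx1KO than in control cells, where 7.91% of the 13067 genes tested were called higher and 5.1% lower. All 7 were also called higher in ZebDKO than in control cells, where 7.49% of 12974 genes were called higher and 7.28% lower. Both comparisons share the control libraries. Groups without overlap were common over all genes tested. In Runx1KO cells 31.7% of genes lay above every control library and 42.0% below, and in ZebDKO cells 27.7% and 53.3%. For Runx1KO against ZebDKO these shares were 51.0% above and 30.7% below.

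**Figure D1:**
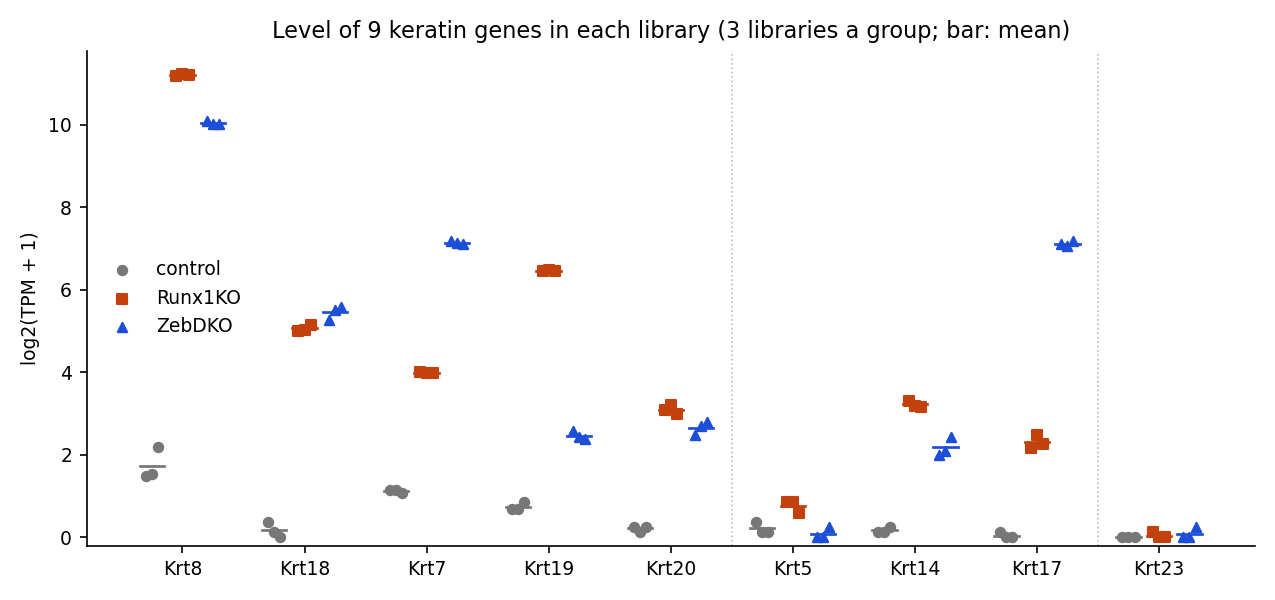
Level of each keratin in every library, as log2(TPM + 1) on the vertical axis, with circles for control, squares for Runx1KO and triangles for ZebDKO libraries (3 each) and a bar at the mean. Dotted lines part the keratins of simple epithelia (left), those of stratified epithelia (middle) and Krt23. Krt8 is the highest in both knockouts, Krt19 is higher in Runx1KO, Krt7 and Krt17 are higher in ZebDKO libraries, and Krt5 and Krt23 stay near 0.

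Krt8, the type II partner of most simple epithelia, was by far the most abundant member. Its level was 1.8, 1.9 and 3.6 TPM in the control libraries, 2302.3, 2393.5 and 2362.3 TPM in the Runx1KO libraries and 1086.7, 1026.5 and 1037.8 TPM in the ZebDKO libraries. The 3 groups were far apart, and the 3 values of each knockout lay close together. By mean level Krt8 ranked 11535 of 24953 genes in control, 19 in Runx1KO and 108 in ZebDKO cells. The log2 fold change was 9.46 (SE 0.18) for Runx1KO against control and 8.30 (SE 0.18) for ZebDKO against control. Its transcript has a near-identical copy on chromosome 7, from 24142113 to 24143830 within Nlrp4e, with 97.9% identity over 96.0% of its length. How reads that match both were counted is not given in the sources used here, so the level of Krt8 is uncertain to that extent. No other member had a copy of at least 95% identity over 50% of its transcript.

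Krt18, the type I partner of Krt8, lies 23.9 kb from it. Its level was 0.3, 0.1 and 0 TPM in control, 31.2, 31.5 and 34.6 TPM in Runx1KO and 37.4, 44.6 and 46.5 TPM in ZebDKO libraries. Both knockouts stood far above control, and the ZebDKO libraries all lay above the Runx1KO libraries. The log2 fold changes were 4.89 (SE 0.10) and 5.28 (SE 0.12) against control. A copy of Krt18 at 90.5% identity lies on chromosome 13, from 118246579 to 118247933.

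Krt7, a type II keratin of ducts and glands, was low but present in control cells, at 1.2, 1.2 and 1.1 TPM. It stood at 15, 14.9 and 14.9 TPM in Runx1KO and at 144, 139.4 and 136.4 TPM in ZebDKO libraries. The groups did not overlap, and the larger rise was in ZebDKO cells. The means gave 12.8-fold for Runx1KO and 119.9-fold for ZebDKO over control, with log2 fold changes of 2.88 (SE 0.054) and 6.02 (SE 0.046).

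Krt19, the type I keratin of ducts, is the smallest keratin and has almost no tail domain. It showed the opposite order, at 0.6, 0.6 and 0.8 TPM in control, 87, 87.5 and 86.6 TPM in Runx1KO and 5, 4.4 and 4.2 TPM in ZebDKO libraries. All 3 groups were apart, with Runx1KO the highest. The means were 130.6-fold and 6.8-fold those of control, with log2 fold changes of 5.73 (SE 0.059) and 1.73 (SE 0.095).

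Krt20, the type I keratin of gut lining and of the urothelial surface, was at 0.2, 0.1 and 0.2 TPM in control, 7.5, 8.3 and 6.9 TPM in Runx1KO and 4.6, 5.5 and 5.9 TPM in ZebDKO libraries. Its log2 fold changes against control were 2.87 (SE 0.089) and 2.44 (SE 0.10). Both knockouts were above control by a wide margin. The Runx1KO libraries lay above the ZebDKO libraries by a gap smaller than the range of either.

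Among the keratins of stratified epithelia, Krt17 stood out in ZebDKO cells. It was at 0.1, 0 and 0 TPM in control, 3.5, 4.6 and 3.8 TPM in Runx1KO and 137.3, 131.7 and 143.8 TPM in ZebDKO libraries. The log2 fold changes were 2.26 (SE 0.11) and 7.07 (SE 0.062). Krt14, the type I keratin of basal cells, was at 0.1, 0.1 and 0.2 TPM in control, 8.9, 8.1 and 8 TPM in Runx1KO and 3, 3.3 and 4.4 TPM in ZebDKO libraries, with log2 fold changes of 3.04 (SE 0.079) and 2.00 (SE 0.13). The transcript of Krt14 aligned at 92.4% identity over 73.8% of its length to the stretch of chromosome 11 that holds Krt16, Krt17 and Krt42, so low values of these genes are less certain. Fold changes of keratins near 0 in control cells depend on the pseudocount. With 0.1 in place of 1, those in Runx1KO cells were 7.34 for Krt18, 5.20 for Krt14, 4.87 for Krt20 and 5.003 for Krt17, and those in ZebDKO cells 7.74, 3.98, 4.37 and 10.09, with 2.602 for Krt19, and all stayed called. Krt5, the usual type II partner of Krt14, did not follow it. Krt5 was at 0.3, 0.1 and 0.1 TPM in control, 0.8, 0.8 and 0.5 TPM in Runx1KO and 0, 0 and 0.2 TPM in ZebDKO libraries. The Runx1KO values lay above the others and all stayed below 1 TPM. Krt23 was at 0 in 7 of the 9 libraries, and at 0.1 and 0.2 TPM in the other two.

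**Figure D2:**
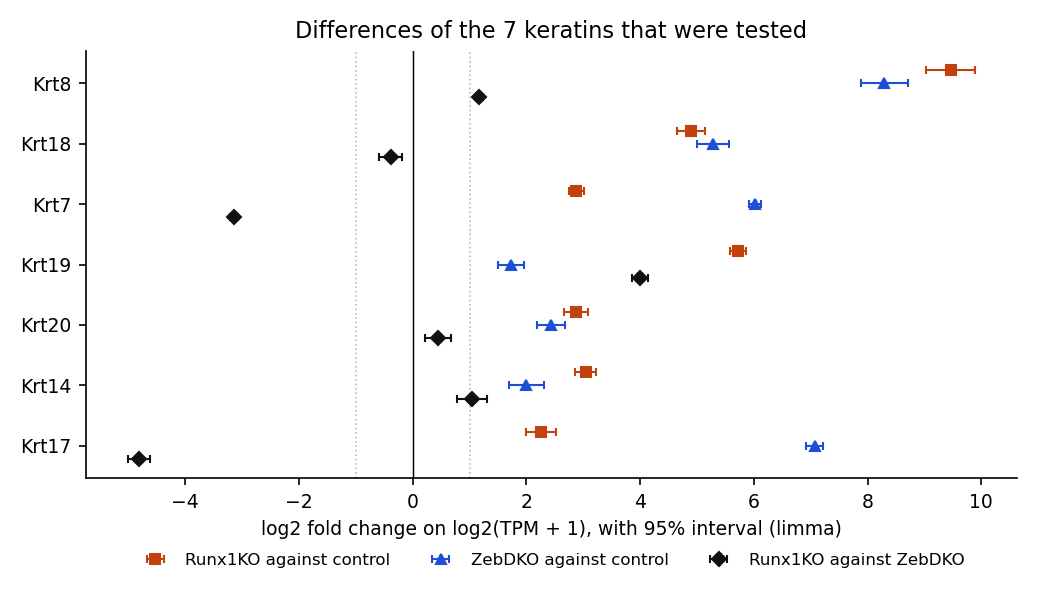
Log2 fold change (horizontal axis, on log2(TPM + 1), with the 95% interval from limma) of the 7 tested keratins in the 3 comparisons. Dotted lines mark 2-fold. All points against control lie to the right of 1, and for Runx1KO against ZebDKO (diamonds) Krt19, Krt8 and Krt14 lie to the right and Krt7 and Krt17 to the left of the dotted lines.

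The 2 knockouts shared the rise of these genes but not their levels. Against ZebDKO, Runx1KO cells had 3 keratins called higher, with 9.2% of 13071 genes called higher, and 2 called lower, with 6.59% called lower. Krt19 was higher in Runx1KO by a log2 fold change of 3.99 (95% interval 3.86 to 4.13, adjusted p = 1.41e-08) and Krt8 by 1.16 (1.10 to 1.23, adjusted p = 8.22e-08). Krt14 was higher by 1.04 (0.77 to 1.31, adjusted p = 9.79e-05), just past the limit, and fell below it with other scalings (0.91 with median-ratio scaling, 0.79 with quantile normalization) and without Runx1KO library 1 (0.999) or ZebDKO library 1 (0.95). Krt17 was lower in Runx1KO by a log2 fold change of -4.81 (-5.002 to -4.61, adjusted p = 2.40e-08) and Krt7 by -3.14 (-3.22 to -3.07, adjusted p = 7.91e-09). Krt18 (-0.39, -0.58 to -0.19) and Krt20 (0.44, 0.21 to 0.67) were not called, with intervals that stay within 2-fold and leave out 0. For Krt20 the difference was 0.18 (adjusted p = 0.14) with quantile normalization.

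In order of level in Runx1KO cells the keratins ran Krt8, Krt19, Krt18, Krt7, Krt14, Krt20, Krt17, Krt5 and Krt23. Krt14 and Krt20 overlapped in these values and so did not differ beyond their spread. In ZebDKO cells the order was Krt8, Krt7, Krt17, Krt18, Krt20, Krt19 and Krt14, with Krt5 and Krt23 both between 0 and 0.2 TPM. There Krt7 overlapped with Krt17, Krt20 with Krt19, and Krt19 with Krt14. These orders are of TPM, which is per length, and depend on the gene models behind it. In the deposited table that holds 6 libraries, Krt14 (11.2 to 12.2 TPM) stood above Krt7 (7.49 to 8.08 TPM) in Runx1KO cells, the reverse of the order above. Krt14 there also stood above Krt20 (3.45 to 4.63 TPM) without overlap.

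The main type I keratin therefore differed between the knockouts. Of the summed type I TPM of the members, Krt19 made up 61.9 to 63.0% in Runx1KO and 2.05 to 2.67% in ZebDKO libraries. Krt17 made up 2.53 to 3.29% in Runx1KO and 69.5 to 73.3% in ZebDKO libraries. The share of Krt18 was alike, at 22.5 to 24.7% and 19.97 to 23.5%. Krt7 made up 0.62 to 0.65% of type II TPM in Runx1KO and 11.6 to 11.96% in ZebDKO libraries, with Krt8 as nearly all of the rest.

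**Figure D3:**
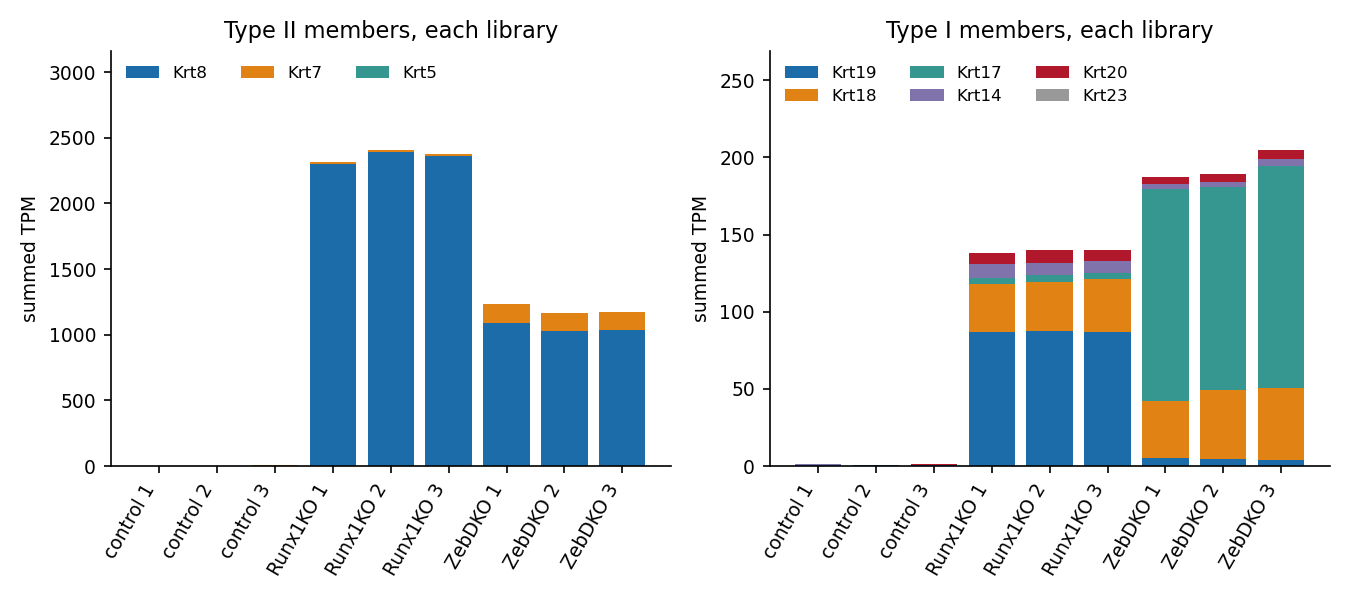
Summed TPM (vertical axes, linear, of different range) of the type II members on the left and the type I members on the right, as stacked bars for each of the 9 libraries. Krt8 fills most of the type II bars of both knockouts, while the type I bars are mostly Krt19 in Runx1KO and mostly Krt17 in ZebDKO libraries.

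Although the filament needs both types in equal amounts as protein, type II RNA was in excess. The ratio of type II to type I TPM was 2.54 to 4 in control libraries, where both sums are near 1 to 5 TPM, 16.8 to 17.2 in Runx1KO and 5.73 to 6.57 in ZebDKO libraries. The 3 groups did not overlap, and each of the 3 differences reached the smallest two-sided p that an exact permutation test of 3 against 3 libraries can give (p = 0.1, adjusted p = 0.1 over the 3), which is above 0.05. Over all 55 keratins the log2 difference of this ratio from control changed its sign, from 2.36 to -0.50 in Runx1KO and from 0.89 to -1.77 in ZebDKO cells, because Krt80 (type II) made up most of the keratin RNA in control cells. Krt8 stood at 68.3 to 76.0 times Krt18 in Runx1KO and at 22.3 to 29.1 times in ZebDKO libraries. In the table of 6 libraries that ratio was 107 to 121 in Runx1KO libraries.

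Of the 46 other keratins, 4 were tested in Runx1KO against control, with 2 called higher, and 5 in ZebDKO against control, with 4 called higher, and none was called lower. Over all genes tested 7.91% and 7.49% were called higher, and 5.1% and 7.28% lower. A total of 8 had a mean of at least 1 TPM in some group, and no value of the remaining 38 was above 1.1 TPM. Krt80, a widely expressed type II keratin, was the one keratin well present in control cells, at 98.2, 87.6 and 104.2 TPM. It stood at 185.2, 185.3 and 180.3 TPM in Runx1KO and 216.7, 235 and 243.9 TPM in ZebDKO libraries, apart from control in both. It was called higher in ZebDKO (log2 fold change 1.26, adjusted p = 3.33e-06) and missed the 2-fold limit in Runx1KO cells (0.92, adjusted p = 1.15e-05). Krt25, a keratin of the hair root sheath, was called higher in both, with 6.8 to 7.2 TPM in Runx1KO, 1.3 to 1.8 TPM in ZebDKO and 0.1 to 0.4 TPM in control libraries.

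Like Krt25, the keratins Krt4, Krt9 and Krt42 differed between the knockouts. Krt4, of the oesophagus, was at 3.2 to 4.3 TPM in Runx1KO libraries, at 0 in all control libraries and at no more than 0.1 TPM in ZebDKO libraries. Krt9, of the skin of palm and sole, was at 3 to 3.5 TPM in ZebDKO libraries and at 0 in the other 6. Krt42 reached 3 to 3.5 TPM in ZebDKO, 0.6 to 1 TPM in Runx1KO and 0 to 0.2 TPM in control libraries. Krt9 and Krt42 were called higher in ZebDKO than in control cells and Krt4 in Runx1KO cells. Against each other Krt4 and Krt25 were called higher and Krt9 and Krt42 lower in Runx1KO than in ZebDKO cells. Krt4 entered that comparison through Runx1KO libraries only, and Krt9 and Krt42 through ZebDKO libraries only. The calls of Krt4, Krt9 and Krt42 there are therefore a description. Like most of the 9 keratins, Krt25, Krt4, Krt9 and Krt42 entered the comparisons with control through the knockout libraries only, so that they had to differ, and their calls are a description. Krt10, of suprabasal epidermis, was at 1.4 to 3.2, 2.3 to 2.8 and 0.8 to 1.8 TPM in control, Runx1KO and ZebDKO libraries and was not called. Krt79 and Krt16 were too low to be tested, at no more than 1.2 and 1.1 TPM.

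**Figure D4:**
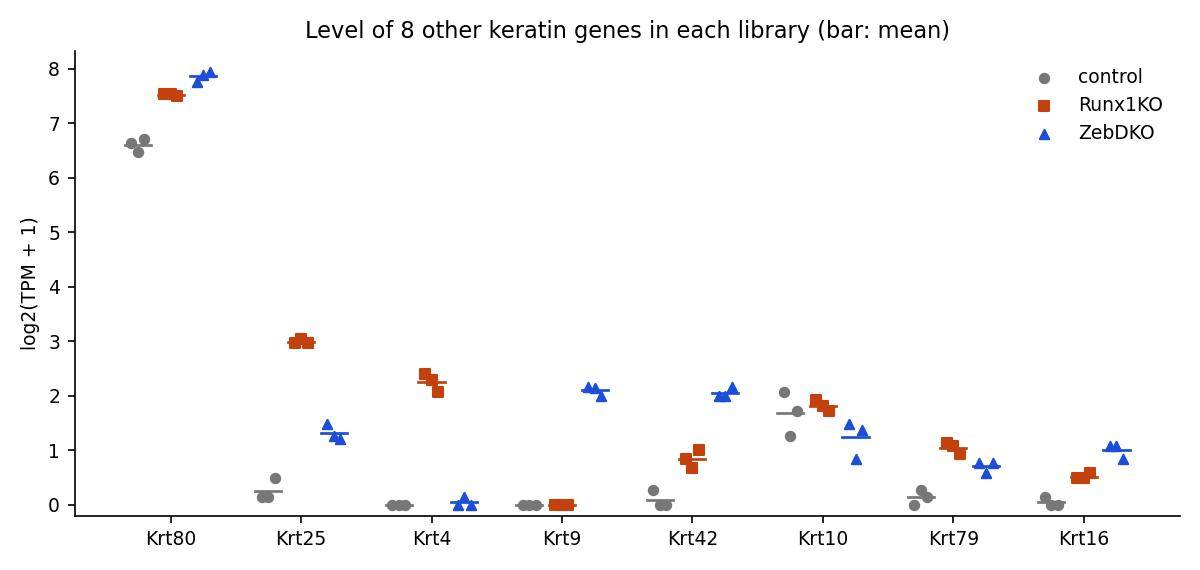
Level of the 8 other keratins with a group mean of at least 1 TPM, as log2(TPM + 1) on the vertical axis, in each of 9 libraries (circles control, squares Runx1KO, triangles ZebDKO, bar at the mean). Krt80 is high in all groups, Krt4 is seen in Runx1KO and Krt9 in ZebDKO libraries.

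Vimentin, the filament protein of mesenchymal cells, remained abundant while the keratins rose. Vim, singled out after its values were seen, was at 2748.8 to 2887 TPM in control, 2782.2 to 2844.7 TPM in Runx1KO and 2075.9 to 2114.3 TPM in ZebDKO libraries. Control and Runx1KO overlapped, and ZebDKO lay below both (log2 fold change -0.42 against control, adjusted p = 5.05e-06), short of 2-fold. In Runx1KO libraries the level of Krt8 thus came near that of Vim, and in ZebDKO libraries it was below it. Of the 15 other intermediate filament genes, 7 were tested in Runx1KO, with none called higher and Des, of muscle filaments, called lower (4.3 to 4.6 TPM in control, 1.1 to 1.3 TPM in Runx1KO libraries). In ZebDKO cells 8 were tested and Nefl, a neurofilament, was called higher, at 1.4 to 1.7 TPM against 0 to 0.1 TPM in control libraries. The median log2 fold change of those tested was -0.01 and -0.10, beside -0.06 and -0.18 over all genes. Of 8 mesenchymal markers, which include Vim, 4 were tested against control in each knockout, and Col3a1, a fibrillar collagen, was called lower in both (1.2 to 1.8 TPM in control, 0 to 0.1 TPM in the knockouts). Beside the calls of all lists in this paragraph, 7.91% of all genes tested were called higher and 5.1% lower in Runx1KO cells. In ZebDKO cells these shares were 7.49% and 7.28%. Of the 10 markers of metanephric mesenchyme 5 were tested. Osr1 was called lower in both knockouts (64.1 to 70.9 TPM in control, 0.3 to 0.5 TPM in Runx1KO, 17.1 to 18.9 TPM in ZebDKO libraries), Eya1 was called lower in Runx1KO cells, and Gdnf lower in Runx1KO and higher in ZebDKO cells. Pax2 and Sall1, also tested, were called in neither knockout. Pax2 was at 310.2 to 315.7 TPM in control, 430.9 to 501 TPM in Runx1KO and 209.5 to 236.3 TPM in ZebDKO libraries. Sall1 was at 49.5 to 53.7, 62.3 to 68.6 and 35.6 to 38.7 TPM. Both thus lay above control in Runx1KO and below it in ZebDKO libraries.

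A list of 15 linkers and regulators, written from general knowledge like the other lists here, holds plakins, plakophilins and other proteins that tie keratin filaments to junctions or organise them. Of the 12 tested in Runx1KO cells 7 were called higher, and of the 13 tested in ZebDKO cells 6 were, with none lower in either, where 7.91% and 7.49% of all genes tested were called higher. The median log2 fold changes were 1.31 and 0.89, beside -0.06 and -0.18 over all genes. Pkp3, a desmosomal plakophilin, was at 0.2 to 0.3 TPM in control, 33.3 to 33.6 TPM in Runx1KO and 11.4 to 12.5 TPM in ZebDKO libraries. Sfn (14-3-3 sigma, which binds keratins) was at 3 to 3.2, 95.7 to 105.7 and 20.4 to 24.7 TPM. Eppk1, which binds keratin filaments, was at 0 to 0.1, 9.4 to 11.3 and 3.9 to 4.4 TPM. In these 3 genes the groups were apart, and Runx1KO was called higher than ZebDKO. Evpl, a cornified-envelope plakin, was at 0.8 to 1.2, 9.1 to 10.3 and 1 to 1.4 TPM, and Runx1KO was called higher than both other groups. Pkp1, the plakophilin of stratified epithelia, was called higher in ZebDKO cells, at 2.4 to 2.8 TPM, with 0.4 to 0.7 TPM in Runx1KO and 0 in all control libraries. Pkp3, Eppk1, Evpl, Pkp1 and the Nefl named above were tested against control only because of their levels in the knockouts. Col3a1 was tested only because of its level in control cells. The calls of these genes against control are likewise a description, also within the counts above. The medians above include these genes where they were tested, and are a description too. Dsp, which anchors keratin filaments at desmosomes and was picked out after its values were seen, was at no more than 0.1 TPM in any library.

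Of 12 transcription factors known from epithelia, 9 were tested in Runx1KO cells and 5 were called higher, and 7 were tested in ZebDKO cells and 1 was. Over all genes tested 7.91% and 7.49% were called higher. The median log2 fold changes were 1.01 and 0.37, beside -0.06 and -0.18 over all genes, and none was called lower. Elf3 was called higher in both, at 30 to 35.3 TPM in control, 118.9 to 123.4 TPM in Runx1KO and 121.5 to 133.8 TPM in ZebDKO libraries. Grhl2, a grainyhead factor, was at 0.1 TPM in control, 4.9 to 5 TPM in Runx1KO and 0.9 to 1.4 TPM in ZebDKO libraries. Ovol1 (2.6 to 3.5 TPM), Ehf (2.9 to 4 TPM) and Klf5 (209.8 to 215.3 TPM) were the other factors called higher in Runx1KO cells, from 0.4 to 1, 0.7 to 1.3 and 101.4 to 111.5 TPM in control libraries. In ZebDKO libraries these 3 were at 0.7 to 0.8, 1.5 to 1.7 and 136.4 to 152 TPM. Grhl2, Ovol1 and Ehf had fewer than 3 control libraries above 1 TPM and were tested against control because of Runx1KO cells. Their calls in Runx1KO cells, and their part in the Runx1KO count and median above, are thus a description. In ZebDKO against control Grhl2 and Ovol1 were too low to be tested, although Grhl2 lay above control in every ZebDKO library. The study reported a rise of Grhl2 in ZebDKO cells by RT-qPCR, and of Ovol1 in the RNA-seq of both knockouts. The ZebDKO values of Ovol1 given above (0.7 to 0.8 TPM) lay within those of control (0.4 to 1 TPM). Runx1KO was called higher than ZebDKO for 4 of the 9 tested, beside 9.2% of all genes. They were Grhl2, Ovol1 and, picked after their values were seen, Grhl1 and Tfap2a. Grhl1 stood at 10 to 10.5 against 3.7 to 4.8 TPM and Tfap2a at 9 to 9.3 against 3.3 to 3.7 TPM. Grhl2 and Ovol1 had fewer than 3 ZebDKO libraries at 1 TPM or more. Both were tested there because of Runx1KO cells, so their calls and their part in that count are a description. Trp63, the factor of basal cells and, like Dsp, picked after its values were seen, was at no more than 0.1 TPM in any library, beside the low Krt5.

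By distance between the 3 group means of log2(TPM+1), the genes most like Krt7 were Cd74, Lsr, Csf3, Pcolce2 and Tspan13, at distances of 1.27 to 1.61. Cd74 was at a mean of 0.5 TPM in control, 7.67 TPM in Runx1KO and 83.9 TPM in ZebDKO cells. No gene came close to Krt8. The nearest were Eps8l2, Grb7, Cdh16, Bcam and Ucp2, at distances of 3.94 to 4.83. Eps8l2 had means of 0.5, 235.1 and 304.3 TPM, and Cdh16, a kidney cadherin, 16.9, 369.0 and 188.7 TPM.

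The chromatin of the keratin loci was described from lists that hold no values per replicate, so no test was made. The authors sorted ATAC-seq peaks into 9427 that open in Runx1KO cells, 8741 that close and 37481 that stay open. An opening peak lay within 5 kb of the annotated start of 4 of the 9 keratins, Krt8, Krt18, Krt19 and Krt5. Of the 11245 genes tested with a position, 9.6% had one. Within 2 kb only Krt8 and Krt5 remained, and within 20 kb Krt17 joined, beside 5.79% and 27.4% of genes. No closing peak lay within 20 kb of any of the 9 starts, beside 17.3% of genes with one. A peak that stays open lay within 5 kb of Krt8, Krt19, Krt20, Krt5 and Krt14, beside 84.9% of genes.

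Krt8 (chr15:101827142-101834773, minus strand, GENCODE vM1 on mm9) had an opening peak of 894 bp across its start (chr15:101834586-101835479). A further opening peak of 636 bp lay in an intron of Krt8, 1.1 kb into the gene (chr15:101833310-101833945). Just upstream a peak of 828 bp stayed open (chr15:101835354-101836181). Between Krt8 and Krt18 (chr15:101858647-101862457, plus strand) were 2 more opening peaks, 10.1 and 4.1 kb before the start of Krt18, and the start of Krt18 itself was covered by none. At Krt19 (chr11:100002124-100009979, minus strand) the opening peak of 537 bp covered the start of transcript Krt19-001, 2.54 kb inside the outermost start (chr11:100007141-100007677), and a peak that stays open lay in an intron (chr11:100008896-100009355).

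Krt5, which stayed below 1 TPM, nevertheless had an opening peak of 348 bp inside the gene, with its middle in an exon (chr15:101541032-101541379). Krt7, Krt20 and Krt14, which rose, and Krt23, which did not, had no opening peak within 20 kb. For Krt7 (chr15:101241474-101260744, plus strand) the nearest opening peak was 22.3 kb from the start and no peak of any ATAC-seq list was closer. At Krt14 (chr11:100064476-100068862, minus strand) a peak of 1135 bp across the outermost start stayed open, while its RefSeq start is 1.52 kb further into the gene. Krt17 (chr11:100117531-100122343, minus strand), at 3.5 to 4.6 TPM in Runx1KO cells, had its nearest opening peak 6.08 kb from the start, beyond the end of the gene. The samples hold no ATAC-seq of ZebDKO cells. For those cells the study reported ATAC read by qPCR at sites near Grhl2.

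**Figure D5:**
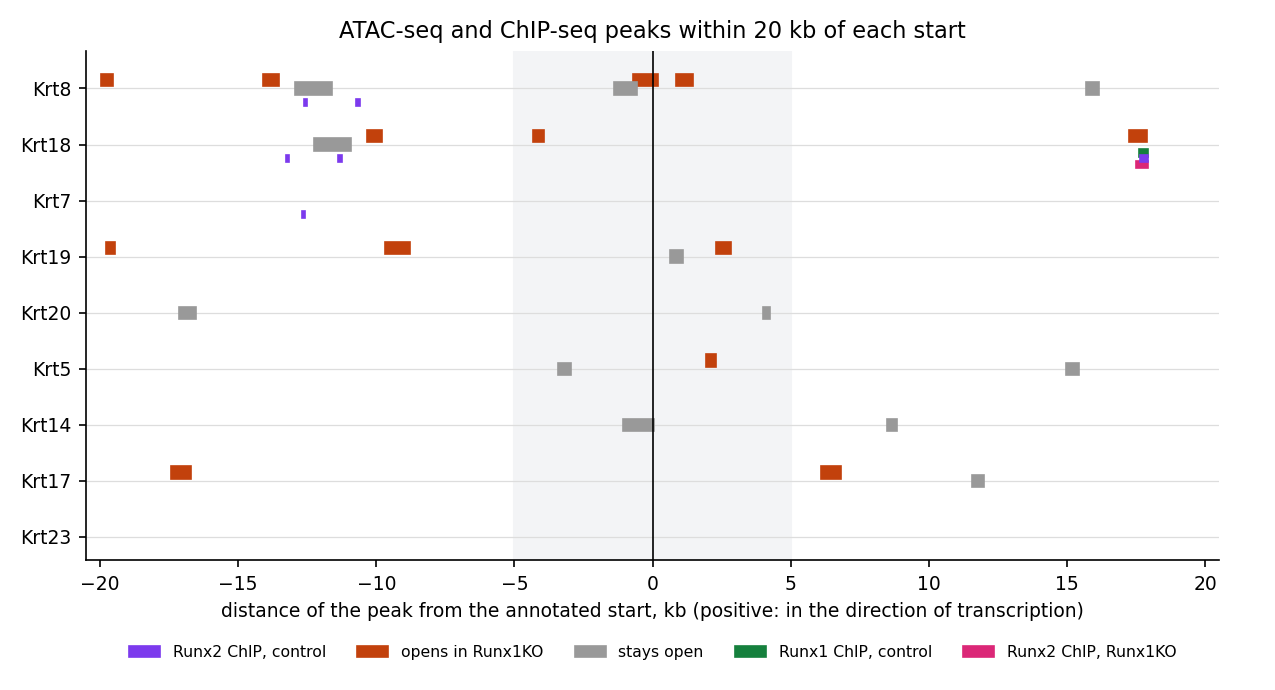
Position of each listed peak (horizontal axis, distance from the annotated start in kb, drawn to scale) within 20 kb of the 9 keratin starts, 1 row a gene, with 5 kb on each side shaded. Orange peaks open in Runx1KO cells, grey peaks stay open, and green, purple and pink mark Runx1 and Runx2 ChIP-seq peaks. Krt8 has an opening peak at its start, Krt7 and Krt23 have no ATAC-seq peak, and no ChIP-seq peak falls in a shaded window.

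Over the type II cluster on chromosome 15 (684.6 kb with 23 annotated keratin genes) 13 of 32 ATAC-seq peaks opened and 2 closed, and over the type I cluster on chromosome 11 (1037.1 kb with 27 keratin genes) 14 of 34 opened and 0 closed. Opening peaks thus made up 40.6% and 41.2% of the peaks there, and 16.9% of all ATAC-seq peaks. Runx ChIP-seq peaks were sparse at the members. No Runx1 or Runx2 peak lay within 5 kb of any of the 9 starts. In control cells 22.6% of genes had a Runx1 peak that close and 51.9% a Runx2 peak, and in Runx1KO cells 54.6% had a Runx2 peak. These shares, like those of genes with ATAC-seq peaks, are over genes that passed the 1 TPM filter, without Krt5 and Krt23. In control cells only Krt7 and Krt8 of the keratins averaged 1 TPM or more, so the genes compared are not matched in level. The nearest Runx1 peak was 17.6 kb from the start of Krt18, on its far side from Krt8 (chr15:101876257-101876575), with a deposited fold over background of 5.55 and a -log10 q of 6.84. Runx2 was bound at the same place in control cells (fold 7.82) and Runx1KO cells (fold 6.93), and this place also lay in an opening peak. In control cells 2 weaker Runx2 peaks lay between Krt8 and Krt18 (folds 2.94 and 3.44), and none of the Runx1KO list was there.

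The promoter table, of 250 bases before to 50 after the RefSeq start, matched 7 of the 9 keratins, all but Krt17 and Krt19. CAGGTG or CAGGTA was present on either strand in 5 of these 7 promoters, and in 29.5% of 32851 promoters of the same length. The promoters printed above show 2 matches each in Krt8, 111 and 46 bases before the start, and in Krt18, 214 and 157 bases before it. Krt7 had 1, 44 bases before its start. Krt5 and Krt23, which stayed low, also had 1 each, and Krt20 and Krt14, which rose in both knockouts, had none. The letters did not part the keratins that rose from those that did not. TGTGGT, which Runx proteins are known to bind, was in 0 of the 7 and in 16.8% of all promoters. AACCNGTT (grainyhead) and TGANTCA (AP-1) were also in 0 of the 7, and in 2.09% and 7.81% of all.

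Of the 5 opening peaks within 5 kb of a keratin start, 4 held CAGGTG or CAGGTA somewhere in the peak, beside 78.9% of all opening peaks (median width 505 bp). In the middle 300 bases, which makes lengths equal, it was 1 of the 5, that of Krt5, beside 62.7% of all opening peaks. In the opening peak at Krt8 both matches lie between the middle of the peak and the start, in the promoter bases shown above. The single match at Krt19 lies 175 bases past the start of Krt19-001. TGTGGT was in the middle of none of the 5, beside 21.0% of all opening peaks, and somewhere in 1 of the 5, the peak across the start of Krt8 with 2 matches, beside 35.4% of all opening peaks. A match is a description of the letters and not a site of binding, and the samples hold no Zeb ChIP-seq.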

How the data were processed

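Members and lists were chosen with earlier results of these data known. Per the methods of the study, the authors trimmed reads (Trim Galore), aligned them to mm9 (STAR), counted them on RefSeq genes (featureCounts) and deposited TPM, with 1 decimal in the table of 9 libraries and 2 decimals in a table of 6. The gene lengths used are not given in the sources used here. Because TPM holds no counts, depth is unknown and no count test was run. For ChIP-seq the authors called MACS2 peaks on combined replicates and deposited the fold over background and the -log10 q. ATAC-seq lists hold peaks of at least 2 of 3 replicates, sorted by the authors by accessibility in control and Runx1KO cells, and the columns of their own comparison were not used.

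For each comparison limma 3.58.1 (R 4.3.3, with a trend) was run on log2(TPM+1) over genes that reached 1 TPM in 3 or more of the 6 libraries. Adding 1 understates the folds of low genes. The fit was tested on simulated data. Libraries were taken as separate samples, and since cultures are named only as triplicate wells, p-values measure the spread between libraries, which may be technical. Intervals are 95%. The ratio of types was tested by exact permutation. Named genes were the members, other keratins with a group mean of at least 1 TPM (at most 12), up to 5 called genes of each list, the targeted genes, and the 5 genes nearest to each of the 2 most abundant members.

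Positions came from GENCODE vM1 (mm9), found for 86.1% of the 13067 genes tested in Runx1KO against control. RefSeq promoters (GRCm38.p6) were placed by exact match to mm9. Copies were sought with blastn 2.17.0 at 90% identity or more. Alternatives were other pseudocounts (0.1, 0.5), filters (none, 5 TPM), scalings, limits and windows, 1 fit over all 9 libraries, no trend, a replicate block, the table of 6 libraries, and each library left out in turn on the same genes.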

Additional observations from a re-analysis of the deposited data

How the results depend on the processing

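With a filter of 5 TPM, 6 keratins were called higher in Runx1KO and 4 in ZebDKO cells against control, since fewer were tested. With the other pseudocounts, scalings and filters that count was 7 in both. With each library left out in turn, 7 stayed called in both comparisons with control, and 2 to 3 were called higher and 2 lower in Runx1KO against ZebDKO. Krt14 fell below 2-fold there with median-ratio scaling, quantile normalization, and without Runx1KO library 1 or ZebDKO library 1. At a limit of 1.3-fold Krt18 (-0.39) and Krt20 (0.44) were called as well. With all 55 keratins the log2 difference of the ratio of type II to type I TPM was -0.50 for Runx1KO and -1.77 for ZebDKO against control, and 1.28 for Runx1KO against ZebDKO. With a window of 2 kb, 2 keratins had an opening peak near the start. Same-numbered libraries had correlations of their deviations from the group means between -0.05 and 0.04, so the numbers do not pair them, and with a replicate block 7, 7 and 3 keratins were called higher in the 3 comparisons. TPM gives no read number, so values of 0 to 0.2 TPM cannot be told from 0.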

Other observations

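The 2 deposited TPM tables give the same Runx1KO libraries different levels for the same keratins. Krt18, Krt7, Krt20, Krt17 and Krt5 stood in the table of 6 libraries at 0.52 to 0.55 of their mean in the table of 9, Krt8 at 0.86, Krt19 at 1.04 and Krt14 at 1.40. The median over 10587 genes with at least 5 TPM was 0.62. All 7 tested keratins were called higher in Runx1KO than in control cells in both tables. The gene models behind each table are not given in the sources used here, and the cause was not tested.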
